A study of Homo sapiens with 26 samples.

Results

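Single cell-derived clonal lines (SCDCLs) of pancreatic ductal adenocarcinoma were compared by their level of MKI67 mRNA. The comparison holds 8 of the 26 libraries in the series, the 4 with the highest and the 4 with the lowest MKI67 among 12 libraries in which SMAD4 mRNA was next to absent. The libraries were chosen by a measured value, the deposited MKI67 TPM (a level per transcript length, scaled to the library), so the difference in MKI67 itself is a description and carries no test. Each SCDCL was grown from 1 cell of BxPC3 or Panc-1, which are established human lines of pancreatic ductal adenocarcinoma, by limiting dilution, and each clone gave 1 library. RNA was taken when a T-25 flask was nearly confluent, was enriched for polyadenylated molecules and was sequenced with the strand kept. Gemcitabine is given as treatment in all the labels, yet in the methods the drug appears only in viability assays. The labels give the parental line and a library number but no passage, growth rate or drug response. All libraries therefore share medium and labelled treatment, and the compared groups are set by the expression values alone.

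MKI67 encodes Ki-67, a protein that coats mitotic chromosomes and is used in pathology as a marker of dividing cells, since resting cells lose it. Its mRNA accumulates from S phase to mitosis together with a large set of G2 and M phase genes. Their promoters are repressed in resting cells by the DREAM complex through a short element called CHR. Many of these promoters also hold a CCAAT box. SMAD4 encodes the common mediator of TGF-beta signalling and is deleted in many pancreatic carcinomas, among them the one from which BxPC3 was derived, whereas Panc-1 is known to keep the gene.

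MKI67 stood at 65.7, 60.3, 49.98 and 45.0 TPM in libraries 7, 25, 3 and 24, called MKI67-high here. It stood at 33.5, 27.1, 19.7 and 19.5 TPM in libraries 26, 16, 1 and 21, called MKI67-low, and all later lists of values follow these orders. The high libraries averaged 55.2 ± 9.45 TPM (SD, n = 4) and the low ones 24.9 ± 6.69 TPM (SD, n = 4), a ratio of 2.22. Libraries 6, 2, 4 and 5 lay between, at 44.2, 43.6, 41.5 and 35.2 TPM. The steps at both limits were small, since library 24 at 45.0 TPM was just inside the high group and library 6 at 44.2 TPM just outside it, while library 26 at 33.5 TPM was just inside the low group and library 5 at 35.2 TPM just outside. Over the 12 libraries the level of MKI67 varied 3.37-fold as a continuum. Replicate error could not be measured for a clone, so p-values here measure only the spread between clones of a group. In bulk RNA, fewer cells in division and less MKI67 RNA per dividing cell cannot be told apart.

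**Figure D1:**
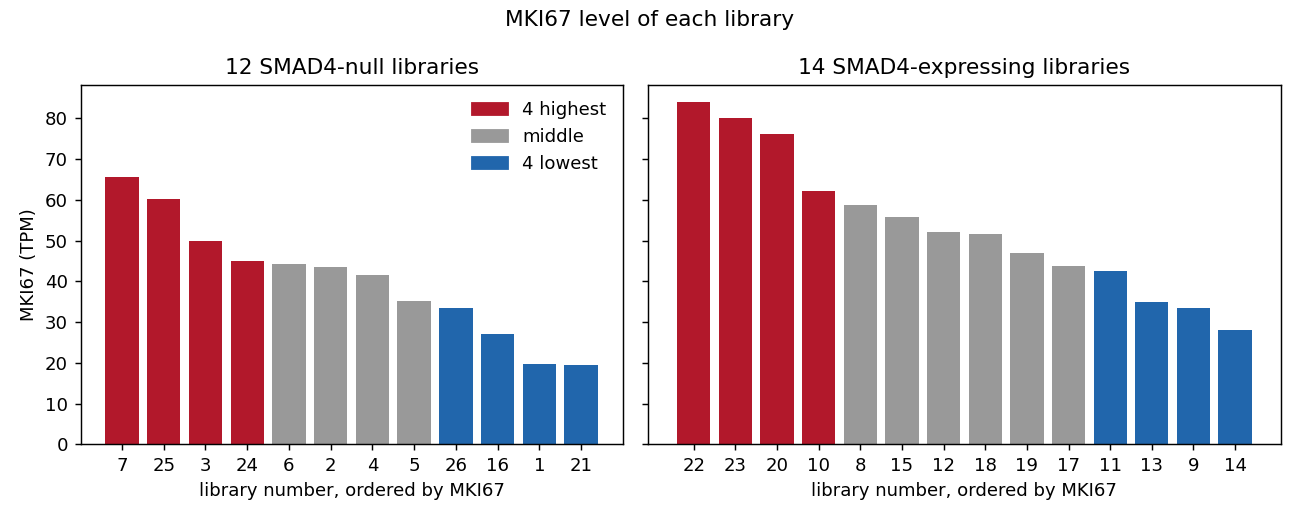
MKI67 in TPM in each of the 12 SMAD4-null libraries (left) and in each of the 14 SMAD4-expressing libraries (right), ordered by level, with the 4 highest in red, the 4 lowest in blue and the others in grey. Every bar is 1 clone. In both panels the levels fall in small steps, from 65.7 to 19.5 TPM on the left and from 84.0 to 28.0 TPM on the right.

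SMAD4 did not exceed 0.0440 TPM in the 12 libraries and lay between 28.1 and 52.2 TPM in the other 14. This split goes against the labels, because 7 of the 12 SMAD4-null libraries are labelled Panc-1 and 7 of the 14 SMAD4-expressing libraries are labelled BxPC3. The label was therefore not used to define a group, and a library is named by its number. Of the high libraries 2 are labelled BxPC3 and 2 Panc-1, and of the low libraries 3 are labelled BxPC3 and 1 Panc-1 (Fisher's exact test, two-sided p = 1). All 12 libraries had the keratin profile of an epithelial line, with KRT19 between 1154 and 3176 TPM, EPCAM between 239 and 424 TPM and CDH1 between 90.8 and 197.7 TPM. Markers of fibroblast, immune and endothelial cells summed to 49.8 to 84.0 CPM in the high libraries and 54.6 to 83.8 CPM in the low ones (CPM, estimated counts scaled to the library by edgeR's TMM method), and 1 of these 9 measured markers was higher and none lower at an unadjusted p under 0.05. Of all genes tested, 9.05% were higher and 8.96% lower at that threshold. Not all of these markers were absent. LUM, a fibroblast gene, was at 0 in 10 of the 12 libraries, whereas COL1A1, another, lay at 24.7 to 65.2 CPM. CD68 reached 31.4 CPM, CDH5 27.8 CPM and CD14 13.5 CPM. The mesenchymal marker VIM ranged from 1.42 to 73.2 TPM over the 12 libraries.

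The libraries of the 12 held 27144920 to 34945608 estimated counts, with no difference found between the groups (exact permutation test over 4 against 4 libraries, two-sided p = 0.8). The share of counts from mitochondrially encoded genes was 1.58% ± 0.462 in the high and 2.74% ± 0.965 in the low libraries (SD, n = 4 each, exact permutation p = 0.0571, adjusted over 6 measures p = 0.114). The share from lncRNA genes was 0.188% ± 0.0277 against 0.132% ± 0.0128, with an exact permutation p of 0.0286, the smallest that 4 against 4 can give, and an adjusted p of 0.0857. The TMM factor averaged 1.04 in the high and 0.969 in the low libraries, with the same exact p of 0.0286. Neither the lncRNA share nor the TMM factor was a planned measure. The part of these differences in the gene results was not tested, except where a value without the mitochondrial genes or without TMM is given.

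Over 15999 genes that passed a filter on low counts, edgeR's quasi-likelihood test called no gene at an adjusted p under 0.05, which is 0.0% of those tested. The smallest adjusted p was 0.067, and 318 genes had one under 0.1. At an unadjusted p under 0.05 the test placed 1448 genes higher (9.05%) and 1433 genes lower (8.96%) in the high libraries. Other tools made calls on the same libraries at an adjusted p under 0.05: DESeq2 called 478 higher and 539 lower, and limma called 3 higher and 3 lower. Leaving out library 24, edgeR called 4 higher and 20 lower, and leaving out library 3 it called 3 and 10. In 929 genes (5.81%) all high libraries were above all low ones, and in 829 genes (5.18%) all were below. Over all 12 libraries, the rank correlation with MKI67 TPM was positive at an unadjusted permutation p under 0.05 for 1079 of 16789 genes (6.43%) and negative for 913 (5.44%), with no adjusted p under 0.05 and the smallest at 0.0839. In what follows, "higher" and "lower" of a counted gene mean an unadjusted p under 0.05, and none of these genes passed edgeR's adjustment over all genes. Each list count is to be read beside the shares of all genes, 9.05% higher and 8.96% lower. For counts of rank correlations these shares are 6.43% positive and 5.44% negative. With library totals alone as the scale, the median log2 difference of all genes moved from 0.011 to 0.11 and the higher share of these genes from 50.3% to 71.8%, while with 6 against 6 libraries the higher share was 37.1%.

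Of the 311 measured genes in the 4 cell cycle lists (S phase, G2/M phase, G1 regulators and replication-dependent histones), 73 were higher and 11 lower. Their median log2 difference was 0.16, beside 0.011 for all genes. Of 155 G2/M genes, 37 were higher and 4 lower, with a median of 0.17, and of 100 S phase genes 22 were higher and 2 lower, with a median of 0.16. The G2/M list thus differed by little at its median, and 113 of its 155 members had a positive difference. The 2.22-fold difference in MKI67 is no like measure, since it is in TPM and MKI67 chose the libraries. In CPM, MKI67 stood at 499, 445, 381 and 323 in the high libraries and 312, 209, 166 and 165 in the low ones. Over 12 libraries 33 of the 155 G2/M genes had a positive and 2 a negative rank correlation at an unadjusted permutation p under 0.05. Without library 3 the G2/M median was 0.11. Without library 3 or without library 1 the higher G2/M genes numbered 24, and without library 3 the higher genes of all 4 lists numbered 48.

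Some G2/M genes followed MKI67 closely. CENPE, the kinetochore motor that moves chromosomes to the spindle equator, stood at 97.1, 80.9, 76.6 and 77.6 CPM in the high libraries and 51.3, 48.003, 27.8 and 42.01 CPM in the low ones. These groups do not overlap (log2 difference 0.98 ± 0.18 SE, unadjusted p = 0.000326, edgeR adjusted p = 0.0738), and the level was 1.97-fold higher, where folds of single genes come from the fit and not from the printed means. Over the 12 libraries CENPE followed MKI67, with rho = 0.94 with permutation p = 3e-05 and adjusted p = 0.168, Pearson r = 0.93 with permutation p = 1e-05 and adjusted p = 0.168, and r = 0.94 without libraries 7 and 21. CENPF, a kinetochore and nuclear matrix protein of G2 and mitosis, stood at 266, 241, 245 and 229 CPM in the high libraries and 194, 169.5, 117 and 197 CPM in the low ones, again without overlap (log2 difference 0.54 ± 0.16 SE, unadjusted p = 0.00811, edgeR adjusted p = 0.149). ASPM, a spindle pole protein, stood at 233, 204, 203 and 184 CPM in the high libraries and 155, 158, 129 and 180.3 CPM in the low ones and did not overlap either (log2 difference 0.41 ± 0.13 SE, unadjusted p = 0.011, edgeR adjusted p = 0.163). CENPF and ASPM were picked out for this description after their values had been seen. Their correlations were rho = 0.90 with permutation p = 0.00016 and adjusted p = 0.19, Pearson r = 0.83 with permutation p = 0.00043 and adjusted p = 0.21, and r = 0.95 without libraries 7 and 21 for CENPF, and rho = 0.78 with permutation p = 0.00391 and adjusted p = 0.273, Pearson r = 0.72 with permutation p = 0.0086 and adjusted p = 0.428, and r = 0.87 without libraries 7 and 21 for ASPM.

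TOP2A, the topoisomerase that untangles sister chromatids, stood at 882, 873, 982 and 792 CPM in the high libraries and 703, 854, 609.9 and 749 CPM in the low ones, so that library 16 lay within the range of the high group (log2 difference 0.28 ± 0.14 SE, unadjusted p = 0.0697, edgeR adjusted p = 0.318). Its correlation with MKI67 was rho = 0.76 with permutation p = 0.00605 and adjusted p = 0.293, Pearson r = 0.64 with permutation p = 0.0263 and adjusted p = 0.489, and r = 0.65 without libraries 7 and 21. PIF1, a helicase that unwinds DNA at stalled forks and telomeres, stood at 32.8, 45.4, 35.5 and 39.5 CPM in the high libraries and 8.90, 24.5, 10.6 and 14.8 CPM in the low ones (log2 difference 1.39 ± 0.29 SE, unadjusted p = 0.000685, edgeR adjusted p = 0.0781), a 2.61-fold difference without overlap. CEP152, a scaffold of centriole duplication, was 1.82-fold higher at 34.3 ± 1.17 against 18.9 ± 1.89 CPM (SD, n = 4 each), with 35.7, 34.7, 32.996 and 33.9 CPM in the high and 17.8, 19.04, 17.3 and 21.5 CPM in the low libraries (log2 difference 0.86 ± 0.12 SE, unadjusted p = 2.75e-05, edgeR adjusted p = 0.067). The groups did not overlap for CEP152.

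**Figure D2:**
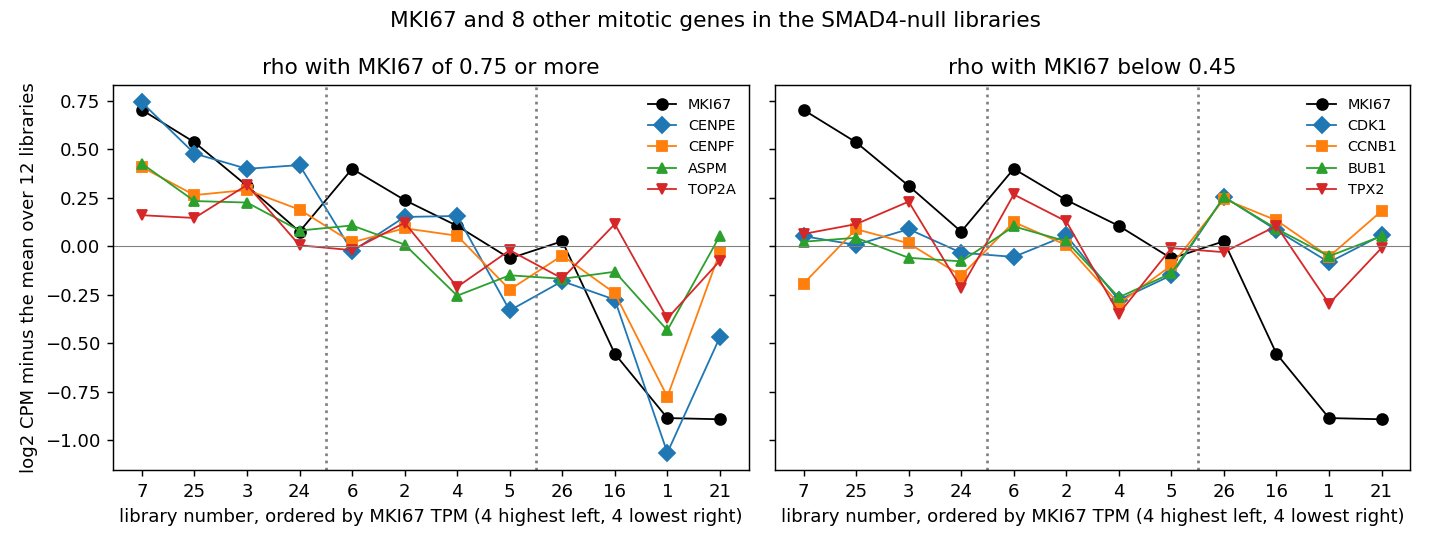
Level of MKI67 and of 8 further mitotic genes in the 12 SMAD4-null libraries, as log2 CPM minus each gene's mean over the 12, with libraries ordered from the highest to the lowest MKI67 TPM and dotted lines at the group limits. CENPE, CENPF, ASPM and TOP2A (left) decline with MKI67, while CDK1, CCNB1, BUB1 and TPX2 (right) stay within a narrow band and have positive and negative values at both ends.

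For the central kinases of mitosis no difference with MKI67 was found. CDK1, the kinase that drives entry into mitosis, stood at 162, 157, 166 and 153 CPM in the high libraries and 186, 165, 147 and 162 CPM in the low ones, which overlap (log2 difference -0.050 ± 0.11 SE, unadjusted p = 0.656, edgeR adjusted p = 0.846), with rho = -0.035 (permutation p = 0.922, adjusted p = 0.979) and r = -0.013 (permutation p = 0.97, adjusted p = 0.994). CCNB1, its cyclin, stood at 189.5, 230.2, 219 and 195 CPM in the high libraries and 256, 238, 209 and 246 CPM in the low ones (log2 difference -0.18 ± 0.12 SE, unadjusted p = 0.157, edgeR adjusted p = 0.452), and 3 of the 4 low libraries were above all high ones. BUB1, a kinase of the spindle checkpoint, and TPX2, which activates Aurora A on the spindle, gave log2 differences of -0.10 ± 0.10 (edgeR adjusted p = 0.642) and 0.11 ± 0.14 (edgeR adjusted p = 0.707). FOXM1 and MYBL2, transcription factors of G2/M genes, gave 0.28 ± 0.17 (edgeR adjusted p = 0.401) and 0.33 ± 0.22 (edgeR adjusted p = 0.454). Libraries were also ranked by 5 mitotic genes, TOP2A, BUB1, CDK1, CCNB1 and TPX2. Their mean log2 CPM varied from 7.66 to 8.06 over the 12 libraries, a 1.31-fold range. MKI67 alone varied from 165 to 499 CPM, but a mean of 5 genes tends to vary less than a single gene. Only 1 of the 4 MKI67-high and 1 of the 4 MKI67-low libraries kept their group when libraries were ranked by those genes, while 3 of 4 and 3 of 4 kept it when ranked by MKI67 CPM in place of TPM. Of 73 named genes with an unadjusted p under 0.05, 42 had a difference of the opposite sign in the ranking by those 5 genes.

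The S phase genes with the largest differences included BRCA1, CDCA7 and CCNA2, which went in both directions. BRCA1, which repairs DNA double-strand breaks, stood at 122, 114, 132 and 93.4 CPM in the high libraries and 65.3, 77.9, 76.1 and 65.03 CPM in the low ones without overlap (log2 difference 0.70 ± 0.13 SE, unadjusted p = 0.00031, edgeR adjusted p = 0.0738). CDCA7, a target of MYC and E2F that recruits a chromatin remodeller, averaged 87.6 ± 20.2 against 54.7 ± 3.48 CPM (log2 difference 0.68 ± 0.15 SE, unadjusted p = 0.00131, edgeR adjusted p = 0.0892). Its value of 118 CPM in library 3 lay apart from the 76.7 to 78.7 CPM of the other high libraries. CCNA2, cyclin A, which drives S phase and entry into mitosis, was lower at 34.1, 32.1, 32.9 and 48.5 CPM in the high libraries and 65.4, 68.1, 33.3 and 71.1 CPM in the low ones (log2 difference -0.68 ± 0.24 SE, unadjusted p = 0.0177, edgeR adjusted p = 0.184), and library 1 of the low group lay within the range of the high group. E2F1, the factor that switches on S phase genes, stood at 82.3, 83.6, 98.1 and 72.98 CPM in the high libraries and 61.1, 77.9, 62.01 and 73.1 CPM in the low ones, with overlap (log2 difference 0.30 ± 0.13 SE, unadjusted p = 0.0427, edgeR adjusted p = 0.26). PCNA, the sliding clamp of DNA polymerases, gave 0.12 ± 0.20 (edgeR adjusted p = 0.787), and MCM2, a subunit of the replicative helicase, gave 0.084 ± 0.18 (edgeR adjusted p = 0.847). MCM2 alone ranged from 221 to 401 CPM over the 12 libraries, with the highest values in libraries 6, 3 and 5.

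Replication-dependent histone genes, whose normal mRNAs end in a stem-loop and carry no poly(A) tail, had the largest median of the 4 lists, 0.57 over 31 genes, with 13 higher and none lower, and without library 7 it was 0.33. H4C15, a histone H4 gene, stood at 191, 75.9, 124 and 52.8 CPM in the high libraries and 58.7, 44.6, 42.7 and 43.8 CPM in the low ones, and library 26 lay above the lowest high library, 24 (log2 difference 1.23 ± 0.34 SE, unadjusted p = 0.00436, edgeR adjusted p = 0.126). H3C6, a histone H3 gene, stood at 18.9, 11.6, 11.7 and 9.22 CPM in the high libraries and 7.69, 7.35, 4.87 and 7.11 CPM in the low ones without overlap (log2 difference 0.93 ± 0.25 SE, unadjusted p = 0.00378, edgeR adjusted p = 0.121), and its correlation with MKI67 was rho = 0.91 with permutation p = 0.00011 and adjusted p = 0.182, Pearson r = 0.84 with permutation p = 0.00032 and adjusted p = 0.21, and r = 0.90 without libraries 7 and 21. In poly(A)-selected RNA these reads come from the tailed minority of histone transcripts, and reads of near-identical histone copies can be split among them, so each gene's level is uncertain.

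Of 28 G1 regulators, 1 was higher and 6 were lower. The member that was higher is RBL2 (p130), which restrains growth as the pocket protein of the DREAM complex and is counted here among cell cycle genes. RBL2, at chr16:53433977-53491648 in GRCh38, stood at 120.2, 127, 139 and 141 CPM in the high libraries and 63.99, 67.1, 64.9 and 76.2 CPM in the low ones, and at 86.1, 87.3, 95.03 and 97.5 CPM in libraries 6, 2, 4 and 5. The groups do not overlap and the middle libraries lie between them, and with log2 difference 0.96 ± 0.11 SE, unadjusted p = 6.4e-06, edgeR adjusted p = 0.067 it had the smallest p of all genes tested. The adjusted p of RBL2 was 3.73e-11 in DESeq2 and 0.0359 in limma, and its correlation with MKI67 was rho = 0.80 with permutation p = 0.0031 and adjusted p = 0.262, Pearson r = 0.78 with permutation p = 0.00318 and adjusted p = 0.344, and r = 0.80 without libraries 7 and 21. CCND3, a D-type cyclin that drives G1, was lower, at 61.7, 52.997, 50.2 and 43.04 CPM in the high libraries and 119, 74.7, 70.6 and 105 CPM in the low ones (log2 difference -0.83 ± 0.19 SE, unadjusted p = 0.00129, edgeR adjusted p = 0.0888). CCND1, the main D-type cyclin of most carcinomas, gave -0.11 ± 0.17 (edgeR adjusted p = 0.768). CDKN1A (p21), the inhibitor that p53 induces, stood at 91.2, 98.5, 31.8 and 97.8 CPM in the high libraries and 207, 134, 165 and 175 CPM in the low ones, without overlap, and library 3 lay far below the other high libraries (log2 difference -1.08 ± 0.31 SE, unadjusted p = 0.00608, edgeR adjusted p = 0.136).

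Promoter sequence (300 bases that span the start of transcription, GRCh38.p14, RefSeq) is shown for MKI67 itself, for CENPF as a gene that followed it and for CDK1 as one that did not. Capitals mark the motifs searched on both strands: CHR as TTTGAA with its variant TTCGAA, the CCAAT box by these 5 letters, and E2F as TTTCGCGC, TTTGGCGC, TTTCCCGC or TTTGCCGC. MKI67 lies at chr10:128126374-128126673 on the minus strand, CENPF at chr1:214602945-214603244 and CDK1 at chr10:60778081-60778380, both on the plus strand.
MKI67: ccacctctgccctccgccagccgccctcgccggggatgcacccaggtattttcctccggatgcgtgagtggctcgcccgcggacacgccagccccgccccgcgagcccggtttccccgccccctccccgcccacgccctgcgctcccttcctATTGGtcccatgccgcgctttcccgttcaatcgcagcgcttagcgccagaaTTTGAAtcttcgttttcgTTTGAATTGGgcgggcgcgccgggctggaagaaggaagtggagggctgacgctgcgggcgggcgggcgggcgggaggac
CENPF: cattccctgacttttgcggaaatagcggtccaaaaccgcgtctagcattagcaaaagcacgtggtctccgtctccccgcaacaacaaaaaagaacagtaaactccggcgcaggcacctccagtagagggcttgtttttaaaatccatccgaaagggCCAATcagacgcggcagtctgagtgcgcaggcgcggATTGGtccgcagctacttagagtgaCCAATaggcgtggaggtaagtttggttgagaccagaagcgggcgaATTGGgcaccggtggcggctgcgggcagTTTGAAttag
CDK1: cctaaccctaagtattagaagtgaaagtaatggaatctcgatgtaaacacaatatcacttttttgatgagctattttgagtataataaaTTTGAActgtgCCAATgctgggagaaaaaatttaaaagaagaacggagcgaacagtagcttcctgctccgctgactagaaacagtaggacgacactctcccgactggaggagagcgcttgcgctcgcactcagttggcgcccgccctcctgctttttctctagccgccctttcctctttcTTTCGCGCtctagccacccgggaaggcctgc
The MKI67 window holds 2 CHR and 2 CCAAT matches, of which 1 of each overlap, the CENPF window holds 1 CHR and 4 CCAAT matches, and the CDK1 window holds 1 CHR, 1 CCAAT and 1 E2F match. All 3 thus carry CHR and CCAAT letters, whether or not the mRNA followed MKI67. The CHR letters are in 43.8% of promoters of the cell cycle genes that were higher (28 of 64 with an entry), in 39.7% of those of cell cycle genes with a p of 0.05 or more, in 66.9% of the G2/M list and in 16.4% of all 35116 promoters of the table, where CCAAT is in 34.6% and E2F in 3.31%. In promoters of the tested genes the shares are 11.4% for CHR, 36.6% for CCAAT and 5.25% for E2F. Among genes outside the cell cycle, 8.92% of the higher and 11.99% of the lower held the CHR letters. A match is a description of letters and not of a bound site.

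Outside the cell cycle, 1375 of 15688 genes were higher and 1422 lower. Of these, 784 and 684 also had a rank correlation over the 12 libraries of the same sign at an unadjusted permutation p under 0.05, but 8 of those 12 libraries are the ones of the contrast, so this count is no independent check. The groups did not overlap for 789 of the higher and 714 of the lower genes, beside 5.81% and 5.18% of all 15999 genes. Genes chosen by their p on the same 8 libraries tend not to overlap, so this count is no added support either.

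Genes that interferon induces made up the list with the lowest median. Interferons act through receptors and transcription factors to switch on antiviral effectors and antigen presentation, and some tumour lines keep such genes on without infection. Of 51 measured interferon-stimulated genes, 43 were lower and none higher in the high libraries, the median log2 difference was -1.63, and in 35 all high libraries were below all low ones. Over 12 libraries 41 of the 51 had a negative rank correlation at an unadjusted permutation p under 0.05. Summed over the list, the level was 3727, 3198, 2025 and 4686 CPM in the high libraries and 8864, 9194, 10444 and 9264 CPM in the low ones. The low libraries thus lay close together while the high ones varied, and in the middle group library 4, at 6445 CPM, was nearer to the low libraries than library 6, at 1866 CPM. Ranking by MKI67 CPM gave 44 lower genes and a median of -1.80, and ranking by the 5 mitotic genes gave none and a median of -0.16.

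IFI6, an inhibitor of apoptosis and viral replication, stood at 65.02, 40.4, 1.81 and 66.99 CPM in the high libraries and 427, 454, 673 and 273 CPM in the low ones, 10.4-fold lower in the high group by the fit (log2 difference -3.38 ± 0.79 SE, unadjusted p = 0.00157, edgeR adjusted p = 0.0954). ISG15, a ubiquitin-like modifier, stood at 117, 55.3, 28.5 and 91.7 CPM in the high libraries and 404, 260.5, 441 and 348 CPM in the low ones and was 4.95-fold lower (log2 difference -2.31 ± 0.38 SE, unadjusted p = 0.000123, edgeR adjusted p = 0.0686). USP18, the protease that removes ISG15 and restrains the interferon receptor, stood at 8.51, 6.52, 2.16 and 9.25 CPM in the high libraries and 20.2, 46.05, 39.2 and 26.5 CPM in the low ones (log2 difference -2.31 ± 0.42 SE, unadjusted p = 0.000249, edgeR adjusted p = 0.0738). None of the 3 overlapped between the groups, and library 3 was the lowest of all high libraries in each. IFIT1, which binds viral RNA without a proper cap, stood at 54.5, 28.9, 7.63 and 49.2 CPM in the high libraries and 179, 221, 209 and 206 CPM in the low ones (log2 difference -2.53 ± 0.47 SE, unadjusted p = 0.00031, edgeR adjusted p = 0.0738), and its family member IFIT5 at 28.7, 27.7, 17.1 and 32.1 CPM in the high libraries and 55.5, 76.02, 74.2 and 55.2 CPM in the low ones (log2 difference -1.30 ± 0.21 SE, unadjusted p = 9.28e-05, edgeR adjusted p = 0.067). RSAD2 (viperin) was 7.97-fold lower, at 3.69 ± 3.06 against 29.6 ± 8.90 CPM (log2 difference -3.00 ± 0.66 SE, unadjusted p = 0.00102, edgeR adjusted p = 0.0817), with only 0.318 CPM in library 3. UBE2L6, the enzyme that conjugates ISG15, stood at 33.1, 25.3, 28.5 and 45.8 CPM in the high libraries and 80.5, 88.04, 96.95 and 60.4 CPM in the low ones (log2 difference -1.29 ± 0.21 SE, unadjusted p = 0.000111, edgeR adjusted p = 0.0684).

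**Figure D3:**
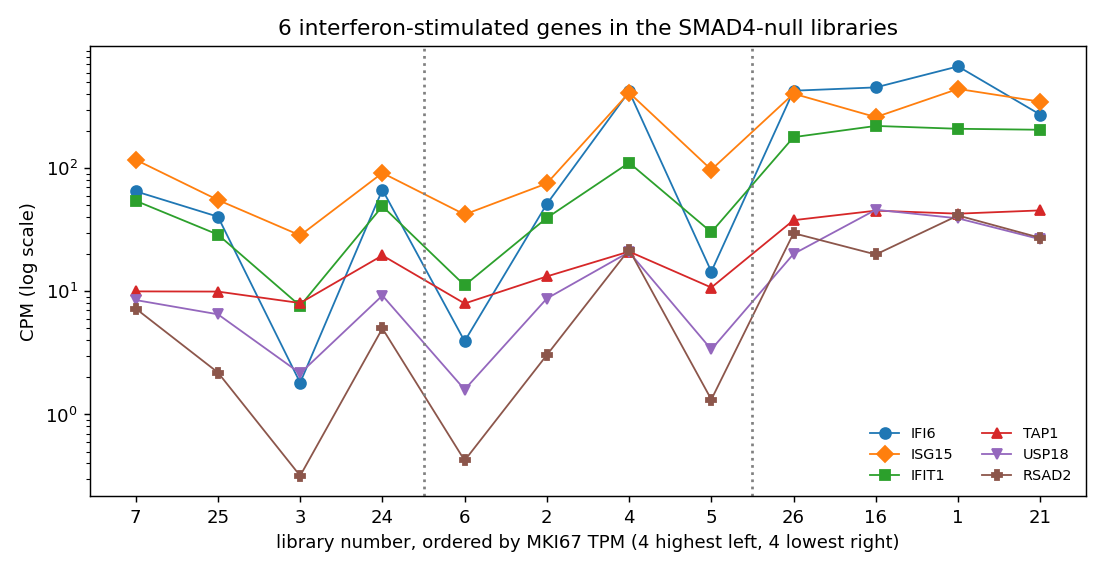
CPM on a log scale of 6 interferon-stimulated genes in the 12 SMAD4-null libraries, ordered from the highest to the lowest MKI67 TPM, with dotted lines at the group limits and 1 point per clone. In all 6 genes every low library (right) lies above every high library (left), and library 4 of the middle group lies near the low libraries.

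TAP1 and TAP2 form the transporter that carries peptides to MHC class I, and both were lower. TAP1, at chr6:32845209-32853816, stood at 10.003, 9.97, 8.04 and 19.6 CPM in the high libraries and 37.9, 45.3, 42.8 and 45.5 CPM in the low ones (log2 difference -1.84 ± 0.26 SE, unadjusted p = 3.47e-05, edgeR adjusted p = 0.067), 3.58-fold lower and without overlap, with library 24 nearest to the low group. TAP2 stood at 48.6, 54.2, 38.4 and 62.3 CPM in the high libraries and 108, 119, 104 and 112 CPM in the low ones (log2 difference -1.11 ± 0.15 SE, unadjusted p = 2.52e-05, edgeR adjusted p = 0.067). The adjusted p of TAP1 was 2.45e-08 in DESeq2 and 0.0468 in limma, and that of TAP2 was 7.24e-08 and 0.0468. Over 12 libraries TAP1 had rho = -0.83 with permutation p = 0.00142 and adjusted p = 0.262, Pearson r = -0.83 with permutation p = 0.00064 and adjusted p = 0.215, and r = -0.79 without libraries 7 and 21. Genes of the MHC region have alternative copies in the annotation among which reads can be split, so these levels are uncertain, and without the MHC genes 39 of 46 members of the list were lower.

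The promoters of 3 genes of this list are shown with the letters TTTCNNTTT, a core of the element that interferon factors bind, and CCAAT in capitals on either strand. ISG15 lies at chr1:1013247-1013546 and IFIT1 at chr10:89392373-89392672, on the plus strand, and TAP1 at chr6:32853655-32853954 on the minus strand.
ISG15: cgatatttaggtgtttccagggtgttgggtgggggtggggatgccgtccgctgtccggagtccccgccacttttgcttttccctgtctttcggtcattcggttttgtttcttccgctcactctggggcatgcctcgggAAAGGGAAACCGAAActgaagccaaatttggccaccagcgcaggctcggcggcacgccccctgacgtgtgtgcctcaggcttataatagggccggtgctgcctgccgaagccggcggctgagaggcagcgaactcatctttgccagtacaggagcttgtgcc
TAP1: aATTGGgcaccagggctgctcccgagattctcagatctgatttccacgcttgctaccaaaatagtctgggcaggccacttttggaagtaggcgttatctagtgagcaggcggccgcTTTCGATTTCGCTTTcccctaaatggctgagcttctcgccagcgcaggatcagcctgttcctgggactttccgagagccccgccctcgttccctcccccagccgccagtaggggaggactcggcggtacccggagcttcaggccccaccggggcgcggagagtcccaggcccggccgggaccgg
IFIT1: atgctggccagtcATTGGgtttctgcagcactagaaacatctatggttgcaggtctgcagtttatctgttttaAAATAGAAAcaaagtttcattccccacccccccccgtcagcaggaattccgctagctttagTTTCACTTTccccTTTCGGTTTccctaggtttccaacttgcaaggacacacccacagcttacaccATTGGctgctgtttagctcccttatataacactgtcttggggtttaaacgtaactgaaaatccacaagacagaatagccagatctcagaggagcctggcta
The interferon letters occur 2 times in ISG15 and 2 times in TAP1, where the matches overlap, and 3 times in IFIT1. They are in 70.7% of the promoters of the list (29 of 41 with an entry), in 10.5% of all promoters and in 7.42% of promoters of tested genes. Among genes outside the cell cycle that were lower, 10.8% held them, and 7.73% of the higher ones did.

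NF-kB targets and inflammatory genes had a median log2 difference of -1.04 over 42 genes, with 20 lower and none higher, and 11 of 42 had a negative rank correlation at an unadjusted permutation p under 0.05. CXCL10, a chemokine of both the interferon and NF-kB responses, stood at 20.2, 8.64, 0.858 and 18.2 CPM in the high libraries and 71.996, 62.4, 47.7 and 43.98 CPM in the low ones (log2 difference -2.23 ± 0.66 SE, unadjusted p = 0.00687, edgeR adjusted p = 0.14). CXCL5, a neutrophil chemokine, stood at 11.5, 10.9, 4.04 and 42.9 CPM in the high libraries and 87.3, 112, 45.8 and 69.6 CPM in the low ones (log2 difference -2.17 ± 0.61 SE, unadjusted p = 0.00511, edgeR adjusted p = 0.13), and library 4 of the middle group had the highest level of all, 290.0 CPM. LIF, a cytokine of the IL-6 family, was 4.02-fold lower at 30.3, 20.7, 22.1 and 60.6 CPM in the high libraries and 170.1, 179, 53.9 and 138 CPM in the low ones, where library 24 overlapped with library 1 (log2 difference -2.01 ± 0.43 SE, unadjusted p = 0.000856, edgeR adjusted p = 0.0801).

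Ligands and targets of the ERK, TGF-beta and YAP pathways also leaned lower. Of 29 ERK output genes 15 were lower and none higher, of 36 TGF-beta, activin and BMP genes 11 were lower and 1 higher, of 27 YAP and TEAD targets 8 were lower and none higher, and of 54 genes of epithelial-mesenchymal transition 14 were lower and 4 higher. Over 12 libraries the negative rank correlations at an unadjusted permutation p under 0.05 numbered 10 of 30 ERK genes, 6 of 37 TGF-beta, activin and BMP genes, 5 of 54 transition genes and 1 of 27 YAP and TEAD targets, which also had 1 positive. Among all genes 5.44% had such a negative correlation, so the rank correlation showed no lean of the YAP and TEAD targets. HBEGF, a ligand of the EGF receptor, stood at 102, 97.5, 33.8 and 105 CPM in the high libraries and 457, 185, 177 and 320.1 CPM in the low ones (log2 difference -1.75 ± 0.40 SE, unadjusted p = 0.00139, edgeR adjusted p = 0.092). EREG, another such ligand, stood at 288, 267, 85.000 and 117 CPM in the high libraries and 677, 314, 303 and 380.3 CPM in the low ones (log2 difference -1.14 ± 0.41 SE, unadjusted p = 0.0182, edgeR adjusted p = 0.186). Both did not overlap between the groups, and library 3 was the lowest in each. INHBA, the subunit of activin A, stood at 60.1, 59.97, 17.2 and 59.1 CPM in the high libraries and 218, 104, 130.3 and 141 CPM in the low ones (log2 difference -1.59 ± 0.37 SE, unadjusted p = 0.00166, edgeR adjusted p = 0.096). The value of 17.2 CPM for INHBA in library 3 lay well below the 59.1 to 60.1 CPM of the other 3 high libraries.

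In the metabolic and stress lists lower genes outnumbered higher ones. Of 41 hypoxia and glycolysis genes 13 were lower and none higher, with 38 of 41 below zero, a median of -0.28 and 8 negative rank correlations at an unadjusted permutation p under 0.05. LDHA, which turns pyruvate into lactate, stood at 292, 322, 258 and 334 CPM in the high libraries and 688, 425, 569.8 and 580.0 CPM in the low ones, without overlap (log2 difference -0.90 ± 0.17 SE, unadjusted p = 0.000271, edgeR adjusted p = 0.0738). P4HA1, a collagen prolyl hydroxylase that hypoxia induces, stood at 52.6, 38.8, 31.7 and 50.6 CPM in the high libraries and 128, 62.3, 81.3 and 109.6 CPM in the low ones (log2 difference -1.13 ± 0.24 SE, unadjusted p = 0.000845, edgeR adjusted p = 0.0801). ALDOA, the glycolytic aldolase, differed less, at 713, 724, 714 and 689 CPM in the high libraries and 986, 789.7, 843 and 1038 CPM in the low ones (log2 difference -0.36 ± 0.13 SE, unadjusted p = 0.0178, edgeR adjusted p = 0.184), yet was among the genes with the lowest rank correlation, rho = -0.90 with permutation p = 0.00027 and adjusted p = 0.193, Pearson r = -0.74 with permutation p = 0.00689 and adjusted p = 0.411, and r = -0.57 without libraries 7 and 21.

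Of 33 amino acid and unfolded protein stress genes 12 were lower and none higher. ATF3, a transcription factor of the stress response, stood at 5.73, 4.52, 3.78 and 11.1 CPM in the high libraries and 15.3, 13.2, 19.6 and 15.2 CPM in the low ones (log2 difference -1.32 ± 0.33 SE, unadjusted p = 0.00226, edgeR adjusted p = 0.101). Among 45 lysosome and autophagy genes 19 were lower and 2 higher. LIPA, the lysosomal acid lipase, stood at 67.1, 55.7, 53.6 and 107 CPM in the high libraries and 188, 111, 126 and 148 CPM in the low ones (log2 difference -1.01 ± 0.25 SE, unadjusted p = 0.0022, edgeR adjusted p = 0.101), and CTSS, cathepsin S, which interferon-gamma is also known to induce, at 68.8, 43.1, 27.7 and 50.4 CPM in the high libraries and 133, 94.7, 79.5 and 84.8 CPM in the low ones (log2 difference -1.04 ± 0.26 SE, unadjusted p = 0.00264, edgeR adjusted p = 0.109). All 3 genes were without overlap between the groups. Of 33 cholesterol genes 5 were lower and none higher, beside 8.96% lower and 9.05% higher among all genes. Among 53 genes of ribosome biogenesis and MYC targets, which usually rise with growth, none was higher and 1, LDHA, was lower.

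Mitochondrially encoded mRNAs, which make subunits of the respiratory chain, had a median of -0.91, and 11 of 13 were lower, whereas over 12 libraries 2 of the 13 had a negative rank correlation at an unadjusted permutation p under 0.05. MT-ND2, a subunit of complex I, stood at 408, 709.5, 387 and 537 CPM in the high libraries and 1293, 779, 879 and 1780.4 CPM in the low ones (log2 difference -1.21 ± 0.29 SE, unadjusted p = 0.0019, edgeR adjusted p = 0.0985). MT-CO2, a subunit of cytochrome c oxidase, stood at 1973, 2914, 1443 and 1839 CPM in the high libraries and 6203, 2319, 3599 and 4719 CPM in the low ones, and here library 16 of the low group lay below library 25 of the high group (log2 difference -1.04 ± 0.31 SE, unadjusted p = 0.00681, edgeR adjusted p = 0.14). The direction of this list rests on the ranking, since its median was 0.05 when libraries were ranked by MKI67 CPM and 0.56 when ranked by the 5 mitotic genes. Without library 26 the median was -0.55.

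Of 38 genes of quiescence and growth arrest 8 were lower and 1, RBL2, was higher. KLF4, a factor of epithelial differentiation, stood at 57.6, 41.8, 17.5 and 58.6 CPM in the high libraries and 123, 77.98, 82.4 and 167 CPM in the low ones (log2 difference -1.35 ± 0.37 SE, unadjusted p = 0.00442, edgeR adjusted p = 0.126). DUSP1, a phosphatase that shuts off MAP kinases, stood at 9.45, 9.32, 9.63 and 13.1 CPM in the high libraries and 17.8, 13.5, 18.97 and 21.7 CPM in the low ones (log2 difference -0.79 ± 0.19 SE, unadjusted p = 0.00215, edgeR adjusted p = 0.1001), and its correlation with MKI67 was rho = -0.87 with permutation p = 0.00061 and adjusted p = 0.258, Pearson r = -0.87 with permutation p = 0.00035 and adjusted p = 0.21, and r = -0.78 without libraries 7 and 21. Among 29 p53 targets 8 were lower and 3 higher. Their median log2 difference was -0.043, with 14 genes above zero and 15 below. The p53 targets with the values given here were lower and do not stand for the list. PMAIP1 (NOXA), a killer protein of the BCL2 family, stood at 33.5, 20.5, 15.6 and 41.6 CPM in the high libraries and 127, 45.8, 52.1 and 172 CPM in the low ones (log2 difference -1.83 ± 0.46 SE, unadjusted p = 0.00253, edgeR adjusted p = 0.107), and FAS, a death receptor, at 21.6, 19.4, 15.9 and 21.5 CPM in the high libraries and 49.3, 31.4, 27.8 and 38.5 CPM in the low ones (log2 difference -0.90 ± 0.19 SE, unadjusted p = 0.000893, edgeR adjusted p = 0.0803). None of these 4 genes overlapped between the groups. CDKN1A, PMAIP1 and FAS are also induced by routes other than p53.

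Of 24 measured genes in a list on gemcitabine uptake, activation and inactivation, 2 were higher and 8 lower. Not every member acts on the drug itself, and TYMP and TYMS are enzymes of thymidine metabolism. TYMP, thymidine phosphorylase, which is also interferon-induced, had the largest difference and stood at 32.2, 32.5, 8.68 and 71.5 CPM in the high libraries and 196, 135, 120.4 and 207 CPM in the low ones (log2 difference -2.17 ± 0.50 SE, unadjusted p = 0.00145, edgeR adjusted p = 0.0935). SAMHD1, which cleaves nucleoside triphosphates and is likewise known to be interferon-induced, stood at 90.7, 94.3, 46.9 and 117 CPM in the high libraries and 145, 387, 328 and 173 CPM in the low ones (log2 difference -1.56 ± 0.36 SE, unadjusted p = 0.00141, edgeR adjusted p = 0.0923). The nucleotidases that remove phosphate differed in direction. NT5C3A stood at 16.2, 13.97, 15.5 and 12.4 CPM in the high libraries and 30.8, 30.6, 23.97 and 24.1 CPM in the low ones (log2 difference -0.91 ± 0.15 SE, unadjusted p = 9.58e-05, edgeR adjusted p = 0.067) and NT5E (CD73) at 411, 388, 90.02 and 271 CPM in the high libraries and 966, 495, 633 and 695 CPM in the low ones (log2 difference -1.26 ± 0.40 SE, unadjusted p = 0.0106, edgeR adjusted p = 0.162), both lower, whereas NT5C was higher at 38.9, 35.2, 37.2 and 35.9 CPM in the high libraries and 29.1, 25.2, 23.4 and 33.7 CPM in the low ones (log2 difference 0.41 ± 0.14 SE, unadjusted p = 0.0146, edgeR adjusted p = 0.173). DCK, the kinase that adds the first phosphate to gemcitabine, was slightly lower, at 36.4, 39.3, 35.7 and 32.1 CPM in the high libraries and 47.95, 43.2, 41.8 and 44.3 CPM in the low ones (log2 difference -0.30 ± 0.11 SE, unadjusted p = 0.0236, edgeR adjusted p = 0.204). SLC29A1 (ENT1), the main transporter for its uptake, stood at 63.9, 59.2, 62.1 and 41.2 CPM in the high libraries and 75.8, 62.95, 85.1 and 80.3 CPM in the low ones, with overlap (log2 difference -0.42 ± 0.16 SE, unadjusted p = 0.0225, edgeR adjusted p = 0.201). ABCG2, an efflux pump, was low throughout, at 3.22 ± 1.23 against 7.22 ± 2.28 CPM (log2 difference -1.16 ± 0.36 SE, unadjusted p = 0.00825, edgeR adjusted p = 0.15). TYMS, thymidylate synthase and also an S phase gene, was higher at 126, 116, 156 and 82.3 CPM in the high libraries and 71.2, 108, 84.4 and 72.1 CPM in the low ones, with overlap (log2 difference 0.52 ± 0.20 SE, unadjusted p = 0.0266, edgeR adjusted p = 0.216). Among 7 measured genes named by the study, 3 were lower, among them LIF and TNFRSF6B, a decoy receptor for FAS ligand (log2 difference -1.16 ± 0.50 SE, unadjusted p = 0.0422, edgeR adjusted p = 0.258). The study chose these genes on the same samples, so their count is no independent evidence.

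The epithelial lists went both ways, with 8 of 35 squamous and cornified envelope genes higher and 9 lower, and 7 of 36 junction and keratin genes higher and 7 lower. The squamous list had a median log2 difference of -0.40, with 22 of 35 genes below zero and values from -3.75 to 4.89. The junction and keratin list had a median of -0.070, with 21 of 36 below zero. The keratins with the values given here were higher and do not stand for these lists. KRT15, a basal keratin, stood at 89.3, 84.4, 89.5 and 54.2 CPM in the high libraries and 21.02, 42.5, 25.9 and 23.8 CPM in the low ones, without overlap (log2 difference 1.49 ± 0.24 SE, unadjusted p = 9.63e-05, edgeR adjusted p = 0.067). KRT13, a keratin of non-cornified squamous epithelium, stood at 308, 188, 1445 and 78.2 CPM in the high libraries and 41.3, 102, 71.8 and 28.9 CPM in the low ones (log2 difference 3.04 ± 0.82 SE, unadjusted p = 0.0039, edgeR adjusted p = 0.122). KRT4, its partner, stood at 1.31, 1.58, 62.5 and 2.93 CPM in the high libraries and 0.412, 0.507, 1.08 and 0.26 CPM in the low ones (log2 difference 4.89 ± 1.34 SE, unadjusted p = 0.00437, edgeR adjusted p = 0.126). Library 3 carried most of the difference in KRT13 and KRT4, with 1445 and 62.5 CPM, and without it the log2 differences were 1.65 and 1.77. CEACAM6, an adhesion protein that is abundant in pancreatic carcinoma, stood at 17.9, 22.3, 12.8 and 5.92 CPM in the high libraries and 5.60, 1.45, 5.13 and 2.42 CPM in the low ones (log2 difference 2.01 ± 0.49 SE, unadjusted p = 0.00204, edgeR adjusted p = 0.1001), yet the middle library 5 exceeded all of them with 67.1 CPM, and the difference turned to -0.42 when ranked by MKI67 CPM. Among 20 mucin and classical pancreatic genes 3 were higher and 1 was lower, and of 20 Notch genes 2 were lower and none higher. The shares among all genes were 9.05% higher and 8.96% lower, and no lean is read from such small counts.

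Beyond the lists, the genes with the smallest p outside the cell cycle had little else in common. They fill a rule that asked for an adjusted p under 0.05, which none of them reached. GOLGA8A, a member of a duplicated golgin family on chromosome 15 whose copies can share reads, stood at 71.5, 82.1, 71.6 and 96.04 CPM in the high libraries and 28.5, 26.1, 33.05 and 41.6 CPM in the low ones (log2 difference 1.32 ± 0.17 SE, unadjusted p = 1.82e-05, edgeR adjusted p = 0.067). MAN2C1, a cytosolic mannosidase, stood at 86.6, 101, 92.9 and 128 CPM in the high libraries and 35.1, 51.6, 51.7 and 49.3 CPM in the low ones (log2 difference 1.13 ± 0.17 SE, unadjusted p = 6.11e-05, edgeR adjusted p = 0.067). HSPB1 (HSP27), a small heat shock protein, stood at 155, 89.5, 138 and 112 CPM in the high libraries and 63.9, 48.6, 39.2 and 47.5 CPM in the low ones (log2 difference 1.31 ± 0.20 SE, unadjusted p = 5.09e-05, edgeR adjusted p = 0.067). None of the 3 overlapped between the groups. PTPRS, a receptor phosphatase, stood at 66.4, 71.6, 67.8 and 54.03 CPM in the high libraries and 33.5, 43.2, 30.9 and 26.9 CPM in the low ones (log2 difference 0.95 ± 0.16 SE, unadjusted p = 0.000139, edgeR adjusted p = 0.0732), and PLCB3, a phospholipase, at 184, 188, 173 and 179 CPM in the high libraries and 125, 104, 118 and 119.9 CPM in the low ones (log2 difference 0.64 ± 0.11 SE, unadjusted p = 0.000124, edgeR adjusted p = 0.0686). The zinc finger genes ZNF785 and ZNF302 averaged 14.1 ± 1.03 against 7.04 ± 0.589 CPM (log2 difference 1.00 ± 0.15 SE, unadjusted p = 5.62e-05, edgeR adjusted p = 0.067) and 43.6 ± 2.18 against 26.6 ± 2.07 CPM (log2 difference 0.72 ± 0.11 SE, unadjusted p = 8.62e-05, edgeR adjusted p = 0.067).

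On the lower side, TNFRSF8 (CD30), a receptor of the TNF family, stood at 8.42, 7.55, 5.94 and 7.89 CPM in the high libraries and 15.7, 14.9, 18.7 and 19.9 CPM in the low ones (log2 difference -1.21 ± 0.18 SE, unadjusted p = 4.04e-05, edgeR adjusted p = 0.067). CD82, a tetraspanin known as a suppressor of metastasis, stood at 105, 99.3, 71.2 and 97.4 CPM in the high libraries and 206, 145, 174 and 165 CPM in the low ones (log2 difference -0.88 ± 0.16 SE, unadjusted p = 0.000212, edgeR adjusted p = 0.0738), and ICAM2, an adhesion molecule, at 17.1, 13.1, 11.7 and 16.2 CPM in the high libraries and 44.1, 22.01, 38.4 and 33.2 CPM in the low ones (log2 difference -1.24 ± 0.22 SE, unadjusted p = 0.000221, edgeR adjusted p = 0.0738). SLC38A5, a glutamine transporter, stood at 78.99, 86.2, 75.1 and 85.02 CPM in the high libraries and 198, 128, 151 and 137 CPM in the low ones (log2 difference -0.91 ± 0.15 SE, unadjusted p = 0.000107, edgeR adjusted p = 0.0683). In all 4 every high library was below every low one.

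The rank correlation over 12 libraries placed other genes first. ZNF75A, a zinc finger gene, had rho = 0.94 with permutation p = 1e-05 and adjusted p = 0.0839, Pearson r = 0.82 with permutation p = 0.00142 and adjusted p = 0.306, and r = 0.87 without libraries 7 and 21, and RBM41, an RNA-binding protein, had rho = 0.92 with permutation p = 8e-05 and adjusted p = 0.182, Pearson r = 0.87 with permutation p = 0.00041 and adjusted p = 0.21, and r = 0.89 without libraries 7 and 21. The permutation p of 1e-05 for ZNF75A is the smallest that these permutations can give. PSMA6, a subunit of the proteasome, was among the lowest, with rho = -0.92 with permutation p = 0.00012 and adjusted p = 0.182, Pearson r = -0.80 with permutation p = 0.00187 and adjusted p = 0.308, and r = -0.69 without libraries 7 and 21, and stood at 106, 110.1, 111 and 114 CPM in the high libraries and 179, 146, 150.2 and 167 CPM in the low ones (log2 difference -0.53 ± 0.11 SE, unadjusted p = 0.000609, edgeR adjusted p = 0.0755).

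**Figure D4:**
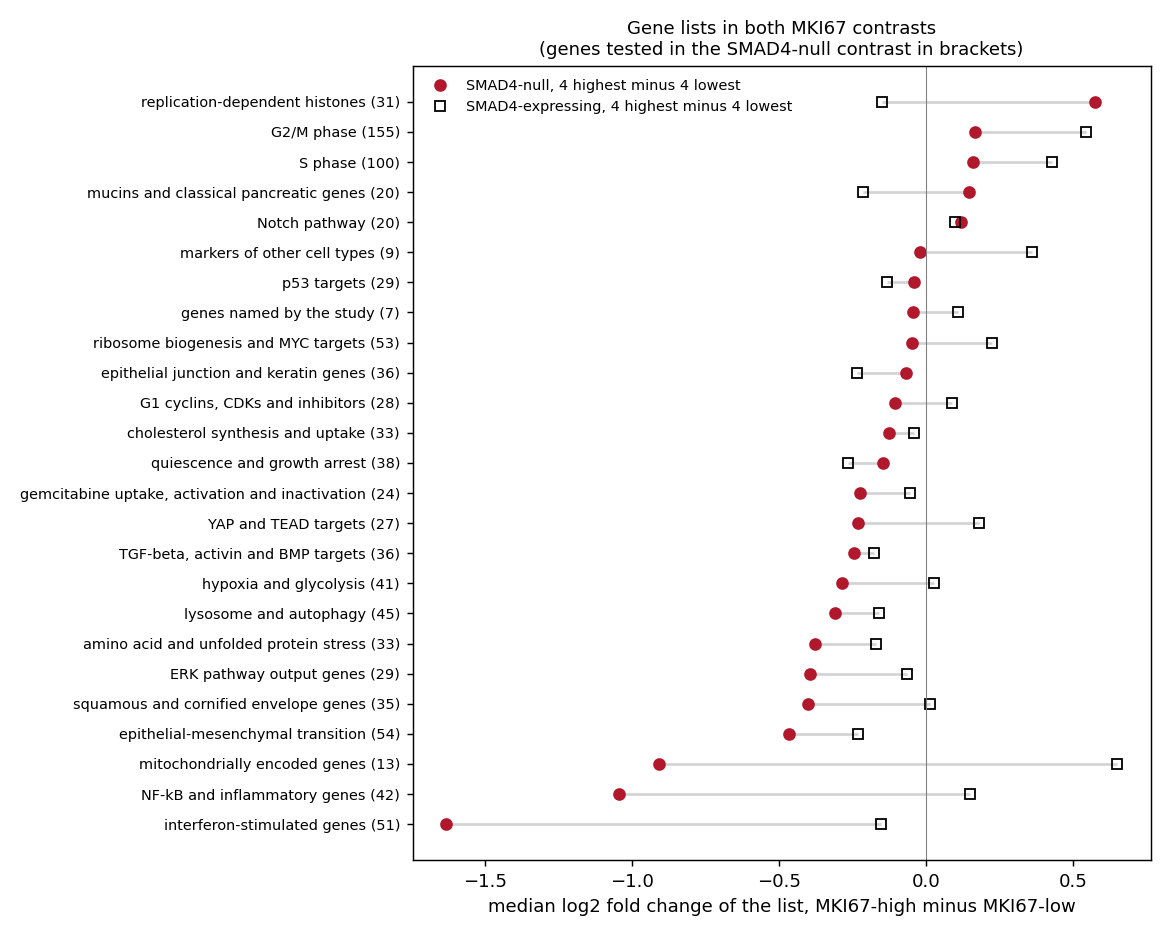
Median log2 difference, MKI67-high minus MKI67-low, of each of the 25 gene lists in the SMAD4-null libraries (red) and in the SMAD4-expressing libraries (open squares), with the number of genes tested in brackets. The interferon list has the lowest median among SMAD4-null libraries, -1.63, and -0.15 among SMAD4-expressing ones, while the mitochondrially encoded genes have medians of opposite sign.

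The same ranking among the 14 SMAD4-expressing libraries gave another 4 against 4, at 75.6 ± 9.57 against 34.7 ± 5.98 TPM of MKI67 (SD, n = 4 each) and a ratio of 2.18, close to the 2.22 above. There 755 of 15413 genes were higher (4.9%) and 802 lower (5.2%) at an unadjusted p under 0.05, with none at an adjusted p under 0.05 and the smallest at 0.0601. In that contrast 3 of the high libraries carry the BxPC3 label and 1 the Panc-1 label, whereas all 4 low ones carry the Panc-1 label, so MKI67 and label cannot be told apart in it. Of 155 G2/M genes 113 were higher and none lower there, with a median of 0.54 beside 0.17 in the SMAD4-null libraries. In the test of the difference between the contrasts, 57 of the 155 had a smaller value in the SMAD4-null libraries at an unadjusted p under 0.05 and 2 a larger one, beside 13.7% of all 17312 genes in either direction. BUB1 gave 0.62 ± 0.16 there against -0.10 ± 0.10 here (difference -0.74 ± 0.18, edgeR adjusted p = 0.115), CDK1 0.53 ± 0.19 against -0.050 ± 0.11 (difference -0.60 ± 0.22, edgeR adjusted p = 0.256) and CCNB1 0.55 ± 0.20 against -0.18 ± 0.12 (difference -0.75 ± 0.23, edgeR adjusted p = 0.198). CENPE was higher in both, by 0.78 and 0.98.

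In the SMAD4-expressing libraries, single interferon genes lay below the MKI67-low SMAD4-null libraries at either level of MKI67. ISG15 lay at 18.9 to 53.3 CPM in the high and 16.3 to 30.2 CPM in the low libraries, and IFI6 at 7.16 to 13.5 and 5.77 to 18.1 CPM, beside 260.5 to 441 and 273 to 673 CPM in the MKI67-low SMAD4-null libraries. TMM scaling ran over all 26 libraries for the SMAD4-expressing CPM and over the 12 for the SMAD4-null CPM, so small differences between them are not read. The MKI67-high SMAD4-null libraries, at 28.5 to 117 CPM of ISG15, overlapped with these SMAD4-expressing ones through library 3 alone. Libraries 7, 25 and 24 lay above all of the latter in ISG15, library 25 only just, and in IFI6. For IFI6 library 3 lay below all of them. Of 45 interferon genes tested 1 was higher and 1 lower, with a median of -0.15, and for 18 of 53 the 2 contrasts differed at an unadjusted p under 0.05, all with the lower value in the SMAD4-null libraries. TAP1 had a difference of -2.66 ± 0.51 (edgeR adjusted p = 0.055), IFIT5 of -1.32 ± 0.25 (edgeR adjusted p = 0.055) and SAMHD1 of -2.09 ± 0.43 (edgeR adjusted p = 0.081). RBL2 differed too, with 0.023 ± 0.15 in the SMAD4-expressing libraries (difference 0.92 ± 0.18, edgeR adjusted p = 0.0582). Of the 13 mitochondrially encoded genes 5 were higher and none lower there, with a median of 0.65, and 12 differed between the contrasts.

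**Figure D5:**
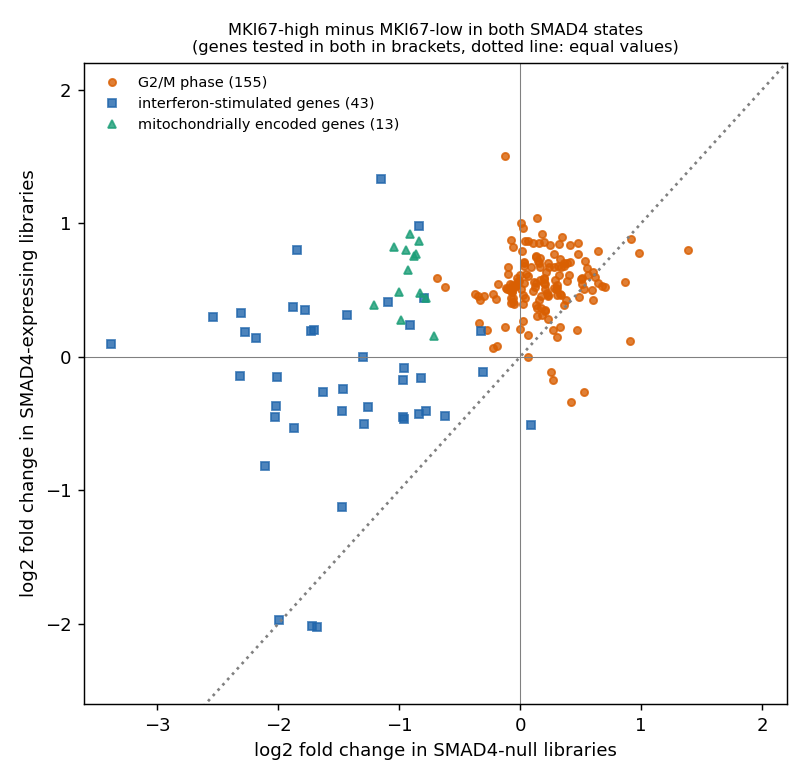
Log2 difference, MKI67-high minus MKI67-low, of single genes in the SMAD4-null libraries (horizontal axis) and the SMAD4-expressing libraries (vertical axis), for 155 G2/M, 43 interferon-stimulated and 13 mitochondrially encoded genes tested in both, with equal values on the dotted line. G2/M genes gather above the line, at medians of 0.17 and 0.54, interferon genes spread to the left, and mitochondrially encoded genes lie at negative values on one axis and positive values on the other.

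Only 8 genes (0.0462% of 17312) differed between the contrasts at an edgeR adjusted p under 0.05, and none of them is in the cell cycle lists. The count was 2 without library 26, 1 or 21, 4 without library 7, 25 or 3, 15 without library 16 and 19 without library 24. FBXO27, a substrate receptor of a ubiquitin ligase, stood at 19.3, 15.3, 11.9 and 13.8 CPM in the high libraries and 9.03, 11.01, 6.99 and 6.77 CPM in the low ones here, while it lay at 133 to 180.3 CPM in the high and 282 to 338 CPM in the low SMAD4-expressing libraries (difference 1.77 ± 0.24, adjusted p = 0.0183). ARMCX3, a mitochondrial outer membrane protein, stood at 50.7, 44.2, 44.6 and 47.4 CPM in the high libraries and 28.4, 41.9, 24.6 and 32.9 CPM in the low ones here and at 8.94 to 17.2 and 24.7 to 43.6 CPM there (difference 1.93 ± 0.31, adjusted p = 0.0306). FJX1, a target of YAP, went the other way, at 72.03, 67.4, 92.7 and 81.2 CPM in the high libraries and 120.0, 113, 113 and 128 CPM in the low ones here and 74.6 to 115 and 55.9 to 71.1 CPM there (difference -1.22 ± 0.20, adjusted p = 0.0405). In these 3 genes the groups did not overlap in either contrast and the order was opposite. As above, CPM here and there were scaled over different sets of libraries.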

How the data were processed

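Messenger RNA of 26 SCDCLs was quantified by the authors with kallisto 0.46.1 against Ensembl release 103 of GRCh38. The deposited table holds 41078 genes with TPM and with estimated counts (expected counts that kallisto shares among transcripts), which the authors had recomputed out of TPM by transcript length and brought to each library's total, with no scaling between libraries. A further 780 columns of resampled counts were not used. Symbols and positions came from GENCODE 44 by identifier (36315 genes).

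SMAD4-null libraries were those under 1 TPM of SMAD4. The members and gene lists were chosen with earlier results of these data known. Estimated counts were rounded, filtered with filterByExpr, scaled by TMM and tested with edgeR 4.0.16 (quasi-likelihood, Benjamini-Hochberg adjustment, threshold 0.05) in R 4.3.3, 4 against 4 libraries. MKI67 was part of these fits and of the adjustment and was left out of every count afterwards. SMAD4 was left out only where it failed the filter. DESeq2 1.42.0 and limma 3.58.1 (on log2(CPM + 1)) were alternatives. The study's own tool, sleuth, was not used here. The difference between the contrasts was an interaction term. Correlations with MKI67 TPM over 12 libraries used 100000 permutations, two-sided, in Python 3.11.15 (scipy 1.17.1, numpy 2.4.6, pandas 2.3.3), over genes expressed in the 12, and r was repeated without the 2 libraries farthest from the median of MKI67. Figures used matplotlib 3.10.9. The tests across genes were tested on simulated data with known differences.

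Named genes were 12 genes set by the rule (MKI67, SMAD4 and 10 of the cell cycle), the genes outside the cell cycle with the largest changes at an adjusted p under 0.05 and a mean of at least 10 CPM (none passed, so those with the smallest p were taken), up to 4 members of each list with the largest changes, the measured gemcitabine genes and genes named by the study, the 5 highest and the 5 lowest rank correlations, and the 5 smallest p of the interaction. Not every gene that the rule names is reported here. CENPF, ASPM, BUB1, TPX2, PLIN4, PKIA and ENSG00000278843 were named outside the rule, after their values were seen. Of the 15999 genes tested, 1042 identifiers had no match in GENCODE 44, and alternative copies of MHC genes are among those for which reads can be split. Motif letters were searched in RefSeq promoters of GRCh38.p14. The labels' numbering does not say whether clones were cultured together, and no batch is given.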

Additional observations from a re-analysis of the deposited data

Results flagged for a closer look

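In 13 of 184 groups of 4 libraries examined, 1 library lay apart from the other 3 in the level of a named gene, where chance alone gives about 5%. Library 3 of the high group lay apart in 6 genes: CDKN1A (31.8 CPM against 91.2 to 98.5 in the others), HBEGF (33.8 against 97.5 to 105), INHBA (17.2 against 59.1 to 60.1), CDCA7 (118 against 76.7 to 78.7), KRT13 (1445 against 78.2 to 308) and KRT4 (62.5 against 1.31 to 2.93). Library 24 of the high group lay apart in TAP1 (19.6 CPM against 8.04 to 10.0), DUSP1 (13.1 against 9.32 to 9.63), KRT15 (54.2 against 84.4 to 89.5), and in CCNA2 (48.5 against 32.1 to 34.1). Library 26 of the low group lay apart in H4C15 (58.7 CPM against 42.7 to 44.6) and MAN2C1 (35.1 against 49.3 to 51.7), and library 1 of the low group in CCNA2 (33.3 CPM against 65.4 to 71.1). For CDKN1A, HBEGF and INHBA the value of library 3 adds to the difference between the groups, and for TAP1, DUSP1, KRT15 and H4C15 the library that lay apart was the nearest to the other group.

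The MKI67 contrast differed between SMAD4-null and SMAD4-expressing libraries for 8 genes, as the difference of the log2 differences, SMAD4-null minus SMAD4-expressing, by edgeR's interaction test at an adjusted p under 0.05. The values were 1.77 for FBXO27 (adjusted p = 0.0183), 2.86 for MMP28 (0.0183), 3.23 for PLIN4 (0.0303), -1.35 for AP1M2 (0.0306), 4.204 for ENSG00000278843 (0.0306), 1.93 for ARMCX3 (0.0306), -1.22 for FJX1 (0.0405) and 5.65 for PKIA (0.0484). For MMP28, a secreted metalloproteinase, and AP1M2, a subunit of the epithelial clathrin adaptor, the SMAD4-null contrast itself gave 0.12 and 0.036, so that the difference came from the SMAD4-expressing libraries. MMP28, PKIA and ENSG00000278843 lay at 0.133 CPM or less in the high SMAD4-expressing libraries, a few counts each, so their fitted values depend on the prior count and are not bounds. In the SMAD4-expressing contrast the label is confounded with MKI67, and the part of the label in these 8 differences cannot be told apart.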

How the results depend on the processing

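No gene passed edgeR's adjusted threshold in the 4 against 4 comparison, and this depended on the tool, the filter and the scale. Genes called higher and lower at an adjusted p under 0.05 numbered 478 and 539 with DESeq2, 3 and 3 with limma, 36 and 11 with library totals alone, 28 and 50 without the filter, 1 and 0 with log2 MKI67 TPM over 12 libraries, and 0 and 1 with 3 against 3. Of these, 25, 1, 4, 3 and 1 higher genes were in the cell cycle lists (in the order DESeq2, limma, totals, no filter, log2 MKI67), and 453, 2, 32 and 25 higher and 536, 3, 11 and 50 lower ones were outside (without log2 MKI67, which gave 0; 3 against 3 gave 1 lower). Leaving out 1 library gave 0 to 4 higher and 0 to 20 lower (cell cycle 0 to 1, outside 0 to 3 and 0 to 20). At an unadjusted p under 0.05, the counts of 1448 higher and 1433 lower became 2286 and 898 with library totals alone, 819 and 753 with log2 MKI67, 529 and 680 ranked by MKI67 CPM, and 191 and 414 ranked by the 5 mitotic genes, with 727 higher for 6 against 6. Outside the cell cycle, 1375 and 1422 became 2183 and 894, 753 and 746, 458 and 677, 155 and 414, and 661 higher. Leaving out 1 library gave 1073 to 1476 higher and 1027 to 1616 lower (cell cycle 48 to 92 higher, outside 1020 to 1393 and 1019 to 1605). Ranked by the 5 mitotic genes, 36 cell cycle and 23 G2/M genes were higher and 0 interferon genes lower, and leaving out 1 library gave 24 to 45 G2/M genes. The G2/M list holds the 5 genes that set that ranking, and they were not left out of its counts. The 8 genes of the difference between contrasts became 404 with DESeq2 and 2 to 19 with 1 library left out. The cause of these moves was not tested. The difference in total counts, 395450, ranged from -401627 (without library 7) to 1200380, turning negative also without library 16 (-61979.5) and without library 21 (-390440).

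Among 86 named genes with a log2 difference, 73 had an unadjusted p under 0.05. Under 21 alternatives these 73 gave 1526 values, of which 1353 kept direction and threshold, 129 kept the direction alone and 44 reversed, 42 of them when ranked by the 5 mitotic genes. Reversed values in that ranking were CCNB1 0.27, CDK1 0.22, E2F1 -0.019, CCND1 0.24, CEP152 -0.079, BUB1 0.22, RBL2 -0.17, CCND3 0.28, IFIT1 0.052, TAP1 0.062, TAP2 0.077, CXCL10 0.0081, LIF 0.91, HBEGF 0.17, EREG 0.62, INHBA 0.14, LDHA 0.13, P4HA1 0.31, ALDOA 0.059, PMAIP1 0.15, FAS 0.23, LIPA 0.057, CTSS 0.082, MT-ND2 0.53, MT-CO2 0.54, TYMP 0.079, NT5C3A 0.58, DCK 0.13, SLC29A1 0.033, KRT15 -0.012, CEACAM6 -1.76, HSPB1 -0.14, GOLGA8A -0.59, MAN2C1 -0.39, PLCB3 -0.10, ZNF785 -0.15, ZNF302 -0.058, CD82 0.066, SLC38A5 0.35, ICAM2 0.15, RBM41 -0.018, PSMA6 0.088, ARMCX3 -0.0058, FJX1 0.30, MMP28 -0.26, PLIN4 -1.23, PKIA -0.30 and CCNA2 0.48. CCNB1, CDK1 and BUB1 are among the 5 genes that set that ranking, so their positive values there were largely built in. Ranked by MKI67 CPM, the reversed values were CDK1 0.038, BUB1 0.031, CEACAM6 -0.42, MMP28 -0.16 and PKIA -0.011, and for 6 against 6 CDK1 0.016, CEACAM6 -0.37, MMP28 -0.11 and PKIA -0.030. Others were CDK1 0.054 and BUB1 0.00089 with library totals, CDK1 0.025 for 3 against 3, and AP1M2 -0.012 with the labelled line as covariate. Leaving out 1 library, values of either sign were found for PKIA (-0.023 to 0.34), MCM2 (-0.065 to 0.19), CDK1 (-0.10 to 0.0023) and PCNA (-0.012 to 0.24), of which none had an unadjusted p under 0.05. Unadjusted counts, leaving out mitochondrial genes and leaving out MHC genes were added after the data had been seen. The lncRNA share of counts, the TMM factor as a measure and the interferon letters were likewise additions to the plan. No paired analysis was possible because the labelled lines share no library numbers. With 4 libraries a group and 1 per clone, differences under the spread between clones were not detectable.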

Other observations

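Gene classes differed in their values beside the 9.05% of genes higher and 8.96% lower overall. Of 313 lncRNA genes 50 were higher and 3 lower in the MKI67-high libraries, with a median log2 difference of 0.32. Transcribed unprocessed pseudogenes had a median of 0.45 over 107 genes, with 24 higher and 1 lower, and unprocessed pseudogenes 0.48 over 75 genes, with 17 higher and 4 lower. The 14103 protein-coding genes had a median of -0.0048, with 1230 higher and 1329 lower. The lncRNA share of counts differed in the same direction, and its part in these values was not tested.

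By chromosome, the share of higher genes was 16.2% for chromosome 15 (83 of 514 genes, 2.72% lower), 13.5% for X, 13.3% for 16, 12.7% for 19 and 12.6% for 17. The lowest share among the autosomes was 4.10%, for chromosome 13.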
